A study of Mus musculus with 4 samples.

Results

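Astroglial cultures of the subventricular zone and of the hippocampus of newborn mice were set against each other across all genes. They are 2 of the 4 arrays of the series, chosen because their labels name these regions, and each holds the RNA of 1 culture. The comparison covers all 12393 genes that at least 1 probe set names alone. Both cultures came from CD-1 mice, an outbred stock, at postnatal day 3, and the labels list no transgene and no treatment beyond the medium. Tissue was pooled over littermate pups, whose number the design text gives both as 4 and as 3. The dissociated cells grew in DMEM with 10% serum, and the adherent layer was shaken at 200 rpm for more than 2 hours and replated, so astroglia were enriched by adhesion and shaking and not by a sort. With 1 array on each side the spread between cultures is unknown, every value below is a size in this pair of cultures, and no test was made. Where a pair of signals is given, the subventricular zone comes first and the hippocampus second.

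Astrocytes clear glutamate and potassium around synapses, pass metabolites to neurons and keep features of the region in which they arose. In the subventricular zone, the germinal layer along the lateral ventricle, cells with astrocyte features act as stem cells that make olfactory bulb interneurons. Hippocampal astrocytes lie among pyramidal and granule neurons, and the fimbria of the hippocampus borders the choroid plexus of the lateral ventricle. Cultures of newborn brain also hold other cells, among them microglia, the resident macrophages, and fibroblasts of the meninges.

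The deposited signals had been brought to the same trimmed mean of 400.1 on both arrays. Signals below 122.1, the median over all probe sets of the 4 arrays, were raised to that floor, and a fold whose lower side sits there is a lower bound, written "at least". Of 22690 probe sets, 11184 were above the floor in the subventricular zone and 11835 in the hippocampus, while the 99th percentile of signal was 6941 and 5619. All 18 hybridisation controls were brighter on the subventricular zone array, by 1.55-fold to 1.86-fold. The part of these array differences in the results was not tested.

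Most genes read alike in both cultures. Interferon response and immediate early genes were mostly higher in the subventricular zone, while chemokines and cytokines were divided between the cultures. Microglial, fibroblast, choroid plexus and ciliary genes were mostly higher in the hippocampus, and so was Gfap. Of the 12393 genes, 7623 were above the floor on at least 1 of the 2 arrays, and a gene was counted as apart when its log2 signals differed by at least 1, that is 2-fold. By this rule 395 genes, 5.18% of those 7623, were higher in the subventricular zone and 522 genes, 6.85%, were higher in the hippocampus. At 4-fold these counts were 73 (0.958%) and 156 (2.05%). The 1485 genes whose higher signal was under 2 times the floor could not be 2-fold apart. Of the 1041 genes at 16 times the floor or more, 123 were higher in the subventricular zone and 74 in the hippocampus. Together these were 18.9%, against 12% of all 7623 genes. The shares of all genes given below thus mix dim and bright genes, and no list was matched for signal. The median log2 difference, subventricular zone minus hippocampus, was -0.03, and 66.6% of genes differed by less than 0.5. The 2 directions were unlike in one respect: 255 of the 522 genes were at the floor in the subventricular zone, whereas 73 of the 395 were at the floor in the hippocampus.

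**Figure D1:**
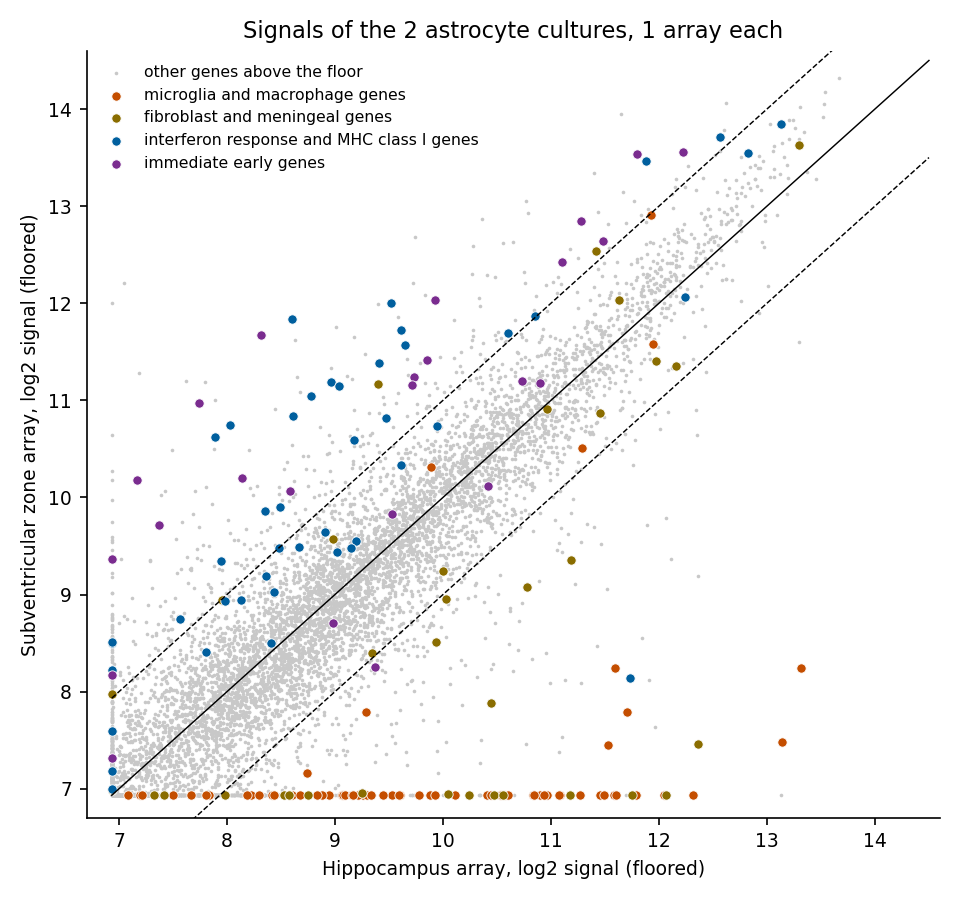
log2 signal on the subventricular zone array against the hippocampus array for the 7623 genes that passed the floor on either array, with 4 gene lists coloured; the solid line marks equal signals and the dashed lines 2-fold. Microglial genes gather at the floor of the subventricular zone, where 11 of the 68 shown lie above it, while immediate early and interferon genes lie mostly on the subventricular side.

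Genes with more than 1 probe set show how well an RNA was measured. Over 2208 genes with 2 probe sets above the floor on both arrays, the gap between the 2 log2 differences had a median-based SD of 0.31, which comes to 0.22 for 1 probe set. No gene was 2-fold apart in opposite directions by its 2 brightest probe sets. Among the genes higher in the subventricular zone, 134 had another probe set above the floor, and it lay on the same side for 131 of them, all but Ints6, Scaf8 and Slc20a2. Among those higher in the hippocampus it did so for 158 of 158. The other probe set was itself at least 2-fold apart for 86 of the 134 (64.2%) and 98 of the 158 (62%). It had to pass the floor on at least 1 of the 2 arrays. One that was at the floor on the lower side could therefore not lie on the opposite side. The scatter between probe sets does not include the spread between cultures. With the floor at the 70th percentile of signal, 360.4, these of the genes named below as apart were under 2-fold: Hes1, Pax6, Ets1, Gad1, Bdnf, Cd74, Tnfaip3, Il6, Nfkb2, Klf2, Aif1, Alcam, Col6a2, Col11a1, Smad7, Meig1, Slco1c1, Folr1 and Xist. Zic5, Fezf2, S100b, Unc5b, Irs2, Tnf, Pf4 and Trem2 were then below the floor on both arrays.

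**Figure D2:**
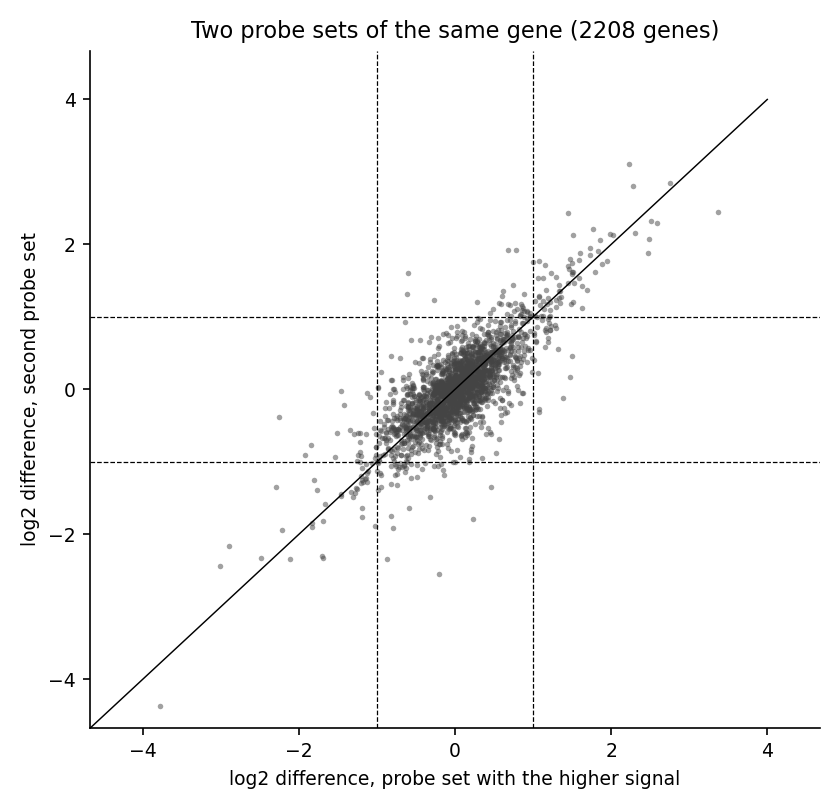
log2 difference, subventricular zone minus hippocampus, by each of 2 probe sets of the same gene, for 2208 genes; dashed lines mark 2-fold and the solid line equality. The points follow the line of equality with a median-based SD of 0.31 in the gap.

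Both cultures expressed astrocyte genes, and the hippocampal culture read higher for more of them. Of 48 astrocyte genes on the array 39 were above the floor in the subventricular zone and 43 in the hippocampus, with summed signals of 138667 and 152212. Among the 44 above the floor on at least 1 array, 11 were 2-fold higher in the hippocampus (25% against 6.85% of all genes) and 3 in the subventricular zone (6.82% against 5.18%), and the median difference was -0.38. Gfap, the intermediate filament that defines astrocytes, read 3112 and 10027, 3.22-fold higher in the hippocampus, and its second probe set differed more (-2.32). The gap junction gene Gja1 read 2505 and 5549.5, with its 4 other probe sets above the floor on the same side, and Aldoc, the brain aldolase, 1594 and 5221. The widest gaps belonged to genes of lipid and glycogen metabolism. Pla2g7, a secreted phospholipase, was below the floor in the subventricular zone at 90.3 and read 3593 in the hippocampus, at least 29.4-fold higher. Ppp1r3c, which brings a phosphatase to glycogen, read 167 and 2161, with a smaller difference by its second probe set (-1.13 against -3.70). The calcium binder S100b was above the floor in the hippocampus alone, at 33.6 and 269; by the mean of its probe sets its difference was -0.57. In bulk RNA fewer cells of a type and less RNA per cell cannot be told apart, here and in all that follows.

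The 3 astrocyte genes higher in the subventricular zone were Aldh1l1, F3 and Fabp7. Aldh1l1, an enzyme of folate metabolism, read 5106 and 1727, 2.96-fold higher, though the mean of its probe sets gave 0.78 on the log2 scale. Tissue factor, F3, read 4675 and 1989. Fabp7, the fatty acid-binding protein of radial glia, read 14077 and 6218, and its difference was 0.76 after quantile normalization. Gfap and Aldh1l1, both in common use as markers, thus lay on opposite sides. Slc1a3, Aqp4, Vim and Nes differed by less than 2-fold: the glutamate transporter Slc1a3 read 2533 and 4328, and the water channel Aqp4 4916 and 3943. Vimentin, Vim, read 20416 and 12993 and nestin, Nes, 1219 and 995. Glutamine synthetase, Glul, read 3356 and 2891, and its second probe set lay on the other side (-0.67). The second glial glutamate transporter, Slc1a2, was below the floor on both arrays. Of 10 filament and cytoskeleton genes Gfap was the one 2-fold apart, and their median of 0.22 turned to -0.006 after quantile normalization.

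Of 25 genes above the floor that handle transmitters, potassium and water, 7 were higher in the hippocampus (28% against 6.85% of all genes) and 2 in the subventricular zone (8% against 5.18%; median -0.28, but 0.047 over those above the floor on both arrays). The water channel Aqp1 was below the floor in the subventricular zone at 31 and read 1457 in the hippocampus. The GABA receptor subunit Gabrb1 read 181 and 1304, and the potassium channel Kcnk2 303 and 1073. Gad1, which makes GABA, lay on the other side at 671 and 197.

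Progenitor genes were divided between the cultures. Of 28 stem and progenitor genes above the floor, 7 were higher in the subventricular zone (25% against 5.18%) and 4 in the hippocampus (14.3% against 6.85%), with a median of 0.09. Vcam1, an adhesion molecule of ventricular stem cells, read 7483 and 1317, 5.68-fold higher in the subventricular zone, and both its other probe sets differed by more than 2-fold. The Notch effector Hes1 read 659.7 and 129.7, and Id1, an inhibitor of differentiation factors, 3632 and 1620.4. On the hippocampal side Hopx, a homeodomain protein of radial glia, read 272 and 2489, 9.16-fold higher. Ntrk2, the receptor for brain-derived neurotrophic factor, read 843 and 3787, and the receptor phosphatase Ptprz1 1013 and 2355. Sox2, the shared stem cell factor, was under 2-fold apart at 2512 and 2854. In the Notch pathway 1 of 15 genes, Hes1, was higher in the subventricular zone and 1 in the hippocampus, a share of 6.67% in each direction that is near the 5.18% and 6.85% of all genes. The latter was Rbpj, the DNA-binding partner of Notch, at 320.3 and 1150.0. None of 7 hedgehog pathway genes above the floor was 2-fold apart.

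Single transcription factors of forebrain patterning set the cultures apart. Of 23 ventral telencephalic factors on the array 8 were above the floor, and the Dlx, Gsx and Nkx2-1 genes were below it on both arrays. Six3, a homeobox gene of the ventral forebrain, read 857 in the subventricular zone and 42.9 in the hippocampus, at least 7.02-fold higher; by the mean of its probe sets the difference was 0.94. Of 12 genes above the floor in the list of dorsal telencephalic and hippocampal factors, 6 were higher in the hippocampus (50% against 6.85%). One gene, Ets1, was higher in the subventricular zone, and the median was -0.73. Ets1 is counted here by its place in the list alone. The zinc finger gene Zic1, also made in the meninges, read 82.9 and 1503. The nuclear receptor gene Nr2f1 read 733 and 2819.8, and Pax6 162 and 547, with a difference of -0.35 by the mean of its probe sets. Zic1, Zic5 and Fezf2 were at the floor in the subventricular zone, and without those 3 the median was 0.075. Lhx2, a selector of cortical identity, leaned the other way, at 2027 and 1178.

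Microglial genes made the largest group of differences among the 40 gene lists compared. Of 82 microglia and macrophage genes on the array, 11 were above the floor in the subventricular zone and 68 in the hippocampus. Of these 68, 57 were at least 2-fold higher in the hippocampus (83.8% against 6.85% of all genes) and none in the subventricular zone, with a median of -2.56. Most of them passed the floor through the hippocampus array alone, so the count is a description. Lysozyme, Lyz2, read 179 and 9016, 50.4-fold higher. Csf1r, whose signal keeps microglia alive, read 55.6 and 5099, at least 41.8-fold higher, and both its other probe sets differed by more than 3 on the log2 scale. The signalling adaptor Tyrobp read 20.7 and 3061, the leukocyte membrane protein Cd53 20.9 and 3113, and the lysosomal protease Ctss 46.3 and 4236. The general macrophage marker Aif1 read 17.4 and 389.7, and P2ry12, a receptor of resting microglia, was below the floor on both arrays; these 2 were chosen after their values were seen.

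Summed over the 82 genes the signal was 16598 in the subventricular zone and 111342 in the hippocampus, 6.71-fold higher. Some markers were near 0 in the subventricular zone, where C1qa read 1.5, C1qc 0.7, Trem2 1.4 and Cx3cr1 5.8. Others were not: among the 11 members above the floor there, Lyz1 read 302.6, Lyz2 179 and Cd68 174.7. Lgals3 and Cd9, which other cells make as well, were well above the floor: Lgals3 read 7676 and 3889, and Cd9 3056 and 3934. Of 38 lysosome and phagocytosis genes 8 were higher in the hippocampus (21.1% against 6.85%) and 1, the receptor Axl, in the subventricular zone (median -0.30). Besides Ctss, Cd68 of the lysosomal membrane read 175 and 2959.7, the protease Ctsc 585 and 5255, and the glucuronidase Gusb 551 and 2393. The part of the microglial genes in other differences between the cultures was not tested.

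**Figure D3:**
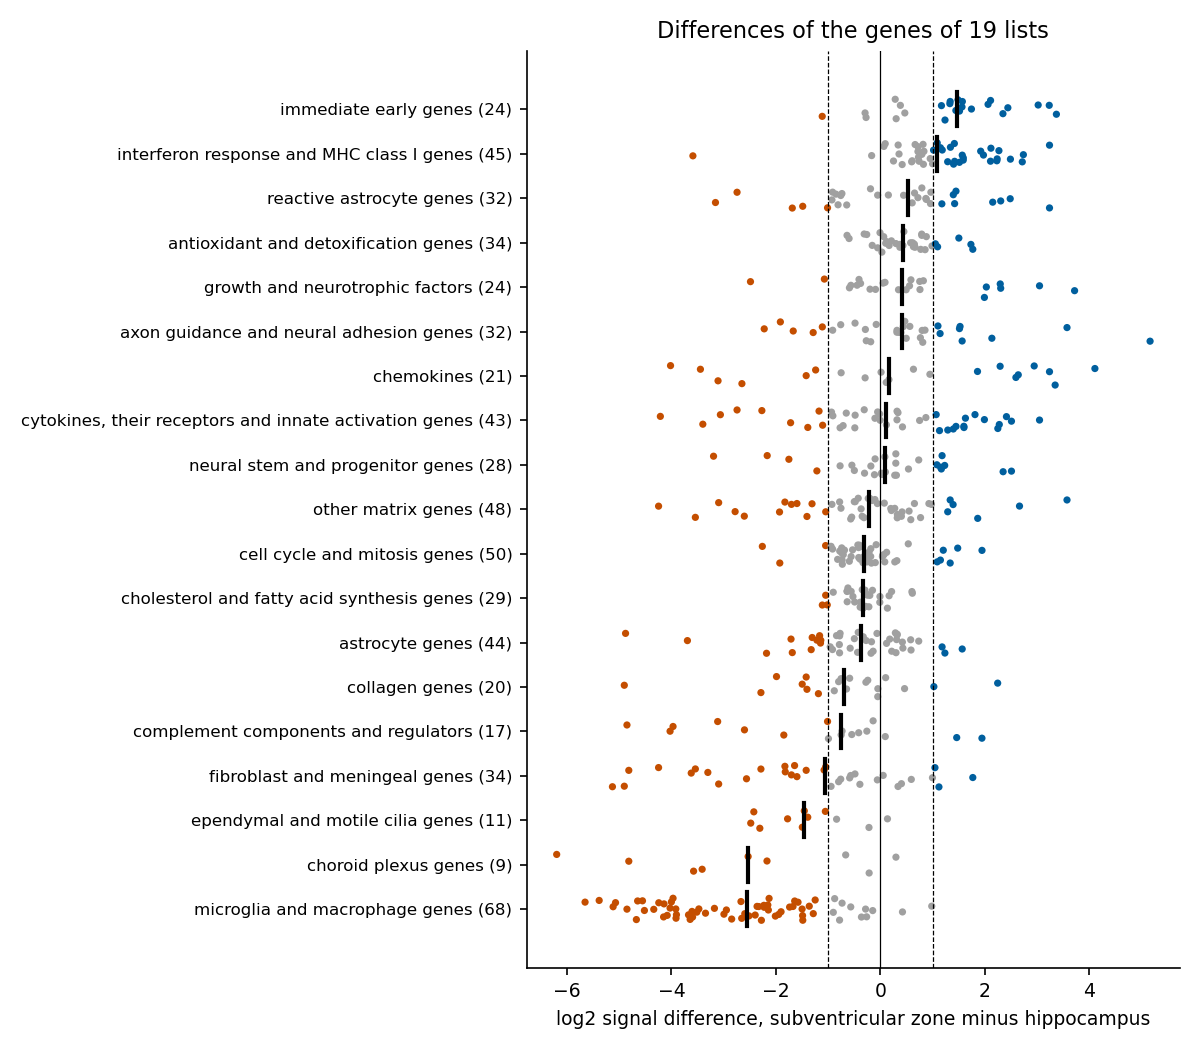
log2 signal difference, subventricular zone minus hippocampus, of the members of 19 gene lists above the floor on at least 1 of the 2 arrays, with their number in parentheses; points are genes, coloured where at least 2-fold higher in one culture, and black bars are medians. Medians run from 1.46 for immediate early genes to -2.56 for microglial genes, and chemokines and cytokines spread widely to both sides.

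Chemokines formed opposite sets in the 2 cultures. Of 21 above the floor, 8 were higher in the subventricular zone (38.1% against 5.18%) and 6 in the hippocampus (28.6% against 6.85%), so the median of 0.16 describes neither set. Cxcl11, a T-cell attractant induced by interferon, read 2496 and 145, 17.2-fold higher in the subventricular zone, and its relative Cxcl10 3661 and 389. The neutrophil attractant Cxcl1 read 6560.1 and 854, and Ccl5 1239 and 83.7. Ccl2, which attracts monocytes and was chosen after its values were seen, read 8504 and 1739. The 6 of the other set, 5 CC chemokines and Pf4, were all at the floor in the subventricular zone. Among them Ccl6 read 58 and 1978, at least 16.2-fold higher in the hippocampus, Ccl12 34 and 1331, and Ccl3 29.1 and 767.

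Cytokine and innate activation genes divided likewise. Of 43 above the floor, 15 were higher in the subventricular zone (34.9%) and 9 in the hippocampus (20.9%), with a median of 0.11. Lif, a cytokine of the interleukin 6 family, read 1007 and 64, at least 8.25-fold higher in the subventricular zone. Il6 itself read 649 and 50.4, and Csf1, the growth factor of microglia, 6356 and 1601. Csf1 and its receptor gene Csf1r thus lay on opposite sides. Of the NF-kB pathway, the co-regulator Nfkbiz read 3719.7 and 769, the subunit Nfkb2 474 and 154, and the feedback inhibitor Nfkbia 9976 and 4558. Its other brake, Tnfaip3, read 579 and 37; with the floor at the 70th percentile Tnfaip3 (0.69) and Il6 (0.85) were under 2-fold apart. On the hippocampal side Acod1, the itaconate-making enzyme of activated macrophages, read 97.2 and 2264, at least 18.5-fold higher. The endotoxin co-receptor Cd14 read 662 and 4436, and the gelatinase Mmp9 34.7 and 1021. Tnf read 33.8 and 263, and Il1a, Il1b and Nos2 were below the floor on both arrays.

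Complement and antigen presentation genes were split as well. Of 17 complement genes 2 were higher in the subventricular zone (11.8% against 5.18%) and 7 in the hippocampus (41.2% against 6.85%), with a median of -0.75. In the subventricular zone 8 of the 17 were above the floor, against 17 in the hippocampus, so the others could lie only on the hippocampal side. Over those above the floor on both arrays the median was -0.20. The 7 include all 3 chains of C1q, the recognition molecule that microglia make, with C1qa at 1.5 and 3527 and C1qb at 16.1 and 1990.1. The proteases that act with C1q were the 2 on the other side: C1s1 read 1491 and 388, and C1ra 1002 and 364. Of 14 MHC class II and antigen presentation genes 5 were above the floor. Of these 1 was higher in the subventricular zone (20% against 5.18%) and 2 in the hippocampus (40% against 6.85%; median 0.07). Those 2 were Ctss, given above, and the lysosomal reductase Ifi30 at 451 and 1088. The other was the invariant chain Cd74, at 475 and 82.1, and its class II partners H2-Aa and H2-Eb1 were below the floor on both arrays.

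Of 32 reactive astrocyte genes 8 were higher in the subventricular zone (25% against 5.18%) and 5 in the hippocampus (15.6% against 6.85%), with a median of 0.53 that was 0.16 after quantile normalization. Steap4, a metalloreductase, read 4724 and 845, the pentraxin Ptx3 7825 and 1766, and lipocalin 2, Lcn2, 17145 and 6298. Ceruloplasmin, Cp, read 15824 and 3212, but its 6 other probe sets gave differences from 0.08 to 2.97. Gfap lay on the other side, so these genes did not run as 1 group.

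Interferon response genes were higher in the subventricular zone in nearly every member. Of 45 interferon response and MHC class I genes above the floor, 24 were at least 2-fold higher there (53.3% against 5.18%), 1 was higher in the hippocampus, and 43 had a positive difference (median 1.09). Gbp6, a guanylate-binding protein, read 1581 and 238, and Irf7, the factor that amplifies the type I response, 1714 and 261, 6.56-fold higher. The antiviral gene Ifit3 read 4107 and 733. Of MHC class I, the heavy chain H2-K1 read 13449 and 6075 and the light chain B2m 11946 and 7268, the latter under 2-fold apart; the choice of these was made with their values in view. The 6 other probe sets above the floor of the heavy chain H2-D1 ranged from -4.21 to 2.51, so its difference of 1.58 is uncertain. The exception was Ifitm1, a membrane protein that hinders virus entry, at 282 and 3392, higher in the hippocampus. Its relatives Ifitm2, at 4295 and 4831, and Ifitm3, at 14768 and 8967, were under 2-fold apart.

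Immediate early genes, which cells switch on soon after a stimulus, had the highest median of all lists, 1.46. Of 29 on the array 24 were above the floor, 17 of them higher in the subventricular zone (70.8% against 5.18%) and 1, Klf2, in the hippocampus. Gadd45b, a growth arrest gene, read 3274 and 317, 10.3-fold higher, and both its other probe sets differed by more than 2-fold. The leucine zipper gene Maff read 2009.5 and 214, and the orphan receptor gene Nr4a1 1162 and 144. The prototypes were closer: Fos read 6405 and 2852, Egr1 11875 and 3552, and Jun, under 2-fold apart, 2319.7 and 1908; the choice of these 3 was made with their values in view. The list summed to 73119 and 28134, against 77459.9 in the ventral mesencephalon culture and 36103 in that of the olfactory bulb.

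Stretches before the start sites of 7 of these genes are shown as examples. Each was picked among list members with a motif match, and the counts given below include the members without one. They are RefSeq promoters of build GRCm38.p6, 120 of the 250 bases before the start, written 5′ to 3′ on the gene's own strand, and capitals mark the motif.
Cxcl10 (NF-kB site, chr5:92348974-92349093, minus strand): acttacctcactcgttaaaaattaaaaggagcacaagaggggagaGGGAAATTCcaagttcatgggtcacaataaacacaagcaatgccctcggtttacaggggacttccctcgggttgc
Cxcl1 (NF-kB site, chr5:90891125-90891244, plus strand): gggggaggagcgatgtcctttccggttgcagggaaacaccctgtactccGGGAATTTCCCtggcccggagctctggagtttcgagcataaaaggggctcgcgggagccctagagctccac
Il6 (NF-kB site, chr5:30012994-30013113, plus strand): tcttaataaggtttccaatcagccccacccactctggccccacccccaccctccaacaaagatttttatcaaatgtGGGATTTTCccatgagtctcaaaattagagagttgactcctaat
Ifit3 (interferon-stimulated response element, chr19:34583382-34583501, plus strand): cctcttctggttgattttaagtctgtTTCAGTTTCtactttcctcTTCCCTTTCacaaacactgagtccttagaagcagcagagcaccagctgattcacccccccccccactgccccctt
Igtp (interferon-stimulated response element, chr11:58199436-58199555, plus strand): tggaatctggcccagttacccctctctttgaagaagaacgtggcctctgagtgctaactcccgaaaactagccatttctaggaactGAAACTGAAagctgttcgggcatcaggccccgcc
Maff (cyclic AMP response element, chr15:79347400-79347519, plus strand): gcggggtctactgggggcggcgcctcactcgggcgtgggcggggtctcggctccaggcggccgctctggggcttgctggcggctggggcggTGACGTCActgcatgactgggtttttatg
C1qc (PU.1 site, chr4:136893035-136893154, minus strand): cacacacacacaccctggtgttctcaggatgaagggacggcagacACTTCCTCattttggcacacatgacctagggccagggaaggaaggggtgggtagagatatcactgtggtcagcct
In Cxcl1 the capitals cover 2 overlapping matches, and the printed stretch of Ifit3 holds 2 of the 3 matches in its 250 bases. The capitals in Ifit3 and C1qc read as the reverse complement of the motif, which there lies on the strand opposite to the one written.

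The motifs were searched on both strands of the 250 bases before the start for 27025 genes. The NF-kB letters GGGANNTTC were found for 3 of the 5 chemokines higher in the subventricular zone that have a listed promoter, namely Cxcl1, Cxcl2 and Cxcl10, and for 0 of 9 chemokines that were not. They were found for 4 of 12 cytokine and innate genes higher in the subventricular zone, Il6, Csf1, Nfkbia and Nfkb2, for 2 of 21 that were not, and for 3.7% of all genes. The interferon-stimulated response element GAAANNGAA was found for 8 of 20 interferon response genes higher in the subventricular zone, for 8 of 17 that were not and for 8.18% of all genes. It was thus about as frequent in members of that list that were not apart. The cyclic AMP response element TGACGTCA was found for 2 of 13 immediate early genes higher in the subventricular zone, for 1 of 7 that were not and for 1.77% of all genes. The PU.1 letters GAGGAAGT were found for 3 of 42 microglial genes higher in the hippocampus, for 2 of 9 that were not and for 2.79% of all genes. The letters are short cores of longer known sites, and a match describes letters and not a bound site.

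Fibroblast genes were mostly higher in the hippocampus. Of 34 fibroblast and meningeal genes above the floor, 18 were higher in the hippocampus (52.9% against 6.85%). On the other side were 3 (8.82% against 5.18%). The median was -1.06 and the summed signals were 40191 and 63388. In the subventricular zone 22 of the 34 were above the floor, against 32 in the hippocampus. Members at the floor in the subventricular zone, among them Apod, Dcn and Aldh1a2, could lie only on the hippocampal side. Over those above the floor on both arrays the median was -0.78. Apod, a lipid-binding apolipoprotein, read 43 and 4276, at least 35.0-fold higher. The fibrillar collagen gene Col3a1 read 176 and 5270.5, 29.9-fold higher, with a smaller difference by its second probe set (-2.33). Decorin, Dcn, read 63.9 and 2319, and Aldh1a2, the retinoic acid-making enzyme of the meninges, 55 and 1206. The chains of type I collagen were closer, at 1868 and 2812 for Col1a1 and 2618 and 4562 for Col1a2; both were chosen after their values were seen, and their second probe sets differed by more (-1.64 and -1.92). Aldh1a1, a relative of Aldh1a2, lay on the other side at 2300.4 and 676. The part of fibroblasts in these and other differences was not tested.

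Of 20 collagen genes above the floor 2 were higher in the subventricular zone (10% against 5.18%) and 7 in the hippocampus (35% against 6.85%), with a median of -0.70. Besides Col3a1, the type VI chain Col6a2 read 124 and 607, and the cartilage collagen Col11a1 129 and 511. Col8a1 lay on the other side at 4329 and 915, with a second probe set at 0.69. Of 48 other matrix genes 6 were higher in the subventricular zone (12.5%), 12 in the hippocampus (25%) and 30 in neither; their median of -0.22 was 0.135 over genes above the floor on both arrays. Spon1, the adhesion protein F-spondin, read 2342 and 197, 11.9-fold higher in the subventricular zone, and Fbln2 772 and 117. Fbln1, of the same fibulin family, was higher in the hippocampus at 123 and 1054. Of 27 matrix proteases and inhibitors 3 were higher in the subventricular zone (11.1%), 8 in the hippocampus (29.6%) and 16 in neither (median -0.20). Mmp2, a gelatinase, read 154 and 1301, whereas stromelysin, Mmp3, read 1441 and 179.8, 8.02-fold higher in the subventricular zone.

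The insulin-like growth factor system was divided. Of 12 members above the floor 3 were higher in the subventricular zone (25% against 5.18%) and 5 in the hippocampus (41.7% against 6.85%; median -0.60, and -0.021 over those above the floor on both arrays). Both ligands were on the hippocampal side, with Igf2 at 24.6 and 3441 and Igf1 at 119.7 and 959.8. The binding protein Igfbp4 was also there, at 278 and 3838, with all 5 other probe sets on the same side. Igfbp3 lay on the other side at 6151 and 1238, 4.97-fold higher in the subventricular zone. The receptor substrates were opposed as well: Irs1 read 701 and 2124, and Irs2 276 and 107.

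Choroid plexus and ciliary genes were higher in the hippocampus. Transthyretin, Ttr, the thyroid hormone carrier that choroid plexus epithelium secretes, read 11.2 and 8959.7, at least 73.4-fold higher, and its other 2 probe sets differed by -5.26 and -5.71. Of 9 choroid plexus genes above the floor 6 were higher in the hippocampus (66.7% against 6.85% of all genes) and none in the subventricular zone. Their median was -2.53, and the summed signals of the list were 2935 and 19548. Of the 9, 2 were above the floor in the subventricular zone. Most thus passed the floor through the hippocampus array alone, so the count is a description. Besides Ttr, Igf2 and Aqp1, the anion transporter Slco1c1 read 85.4 and 707, and the folate receptor Folr1 34.9 and 550.3. Kl and Otx2, which this epithelium also makes, were below the floor on both arrays. Over the 2 genes of the list above the floor on both arrays the median was 0.039. Of 11 ependymal and motile cilia genes 8 were higher in the hippocampus (72.7% against 6.85%) and none in the subventricular zone (median -1.46). The radial spoke gene Rsph1 read 233 and 1156, Meig1 48.1 and 683, and Foxj1, the master factor of motile cilia, 919 and 1909.5. The part of choroid plexus or ependymal cells in other differences was not tested.

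**Figure D4:**
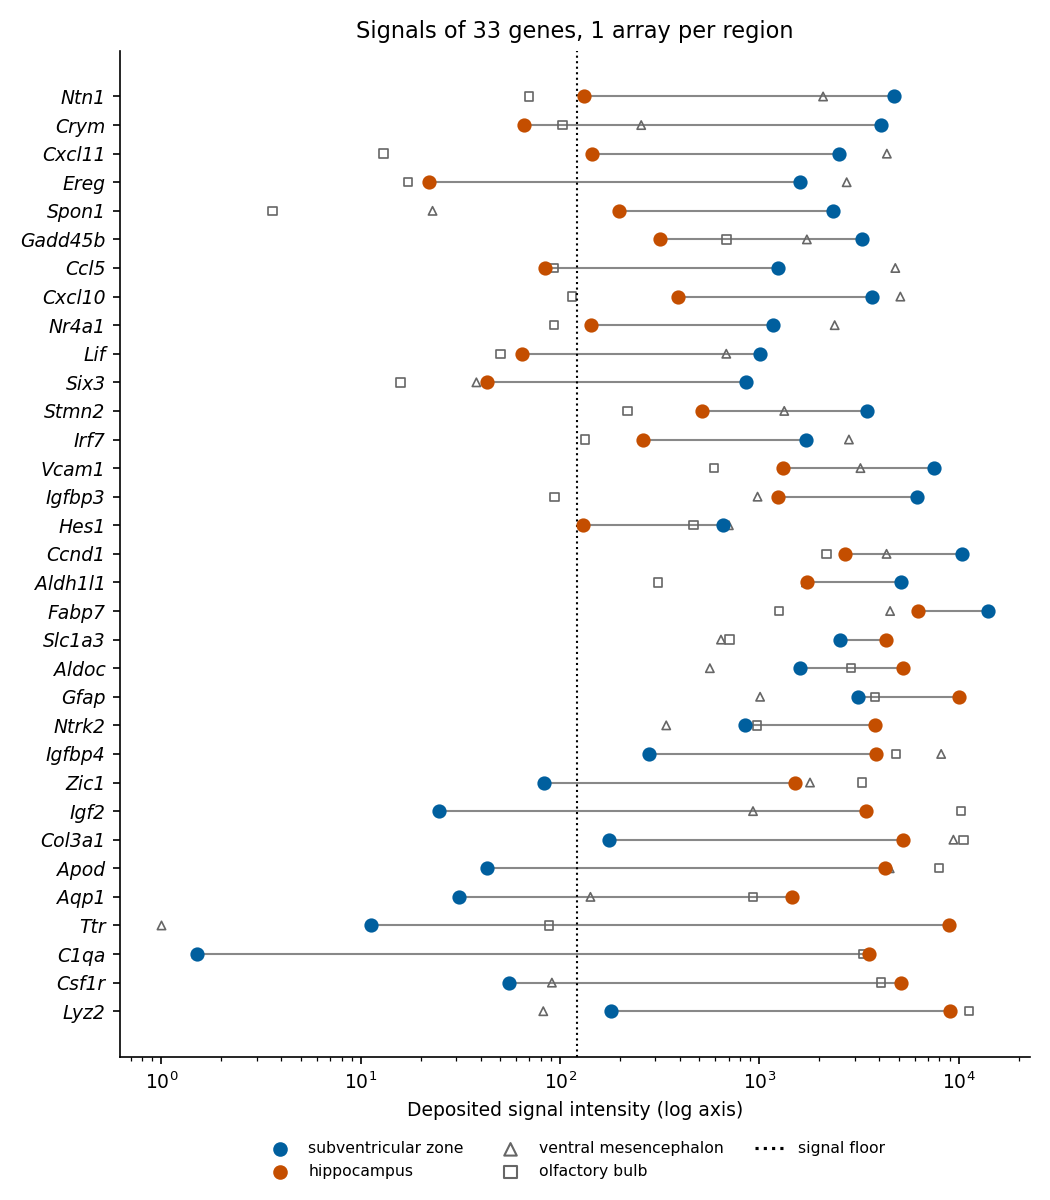
Deposited signal (log axis) of 33 genes on the subventricular zone and hippocampus arrays, joined by a line, with the ventral mesencephalon and olfactory bulb arrays as open symbols and the floor of 122.1 as a dotted line. The first gene is Ntn1, at 4729.6 and 132.3, and the last is Lyz2, at 179.0 and 9015.9. The order is not strictly by difference.

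The widest gaps on the subventricular side belonged to a guidance cue and a hormone-binding protein. Ntn1, netrin-1, read 4729.6 and 132, 35.7-fold higher, and Crym, which binds thyroid hormone in the cytosol, 4089 and 65.7, at least 33.5-fold higher. The second probe set of Ntn1 was at the floor on both arrays, and so were those of Cxcl11, Lif and Spon1, given above. Of 32 axon guidance and neural adhesion genes 8 were higher in the subventricular zone (25% against 5.18%) and 5 in the hippocampus (15.6% against 6.85%), with a median of 0.41. The netrin receptor Unc5b read 351 and 91.6, on the same side as its ligand, and the adhesion molecule Nrcam 2428 and 554. Alcam, another adhesion molecule, was higher in the hippocampus at 122 and 571. Of 17 genes that handle thyroid hormone and retinoids, Crym and Aldh1a1 were higher in the subventricular zone and 6, led by Ttr, in the hippocampus (35.3% against 6.85%; median -0.49, and 0.013 over those above the floor on both arrays).

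Growth factors were more often higher in the subventricular zone. Of 24 above the floor 6 were higher there (25% against 5.18%) and 2 in the hippocampus (8.33% against 6.85%), with a median of 0.42. Ereg, a ligand of the EGF receptor family, read 1604 and 21.9, at least 13.1-fold higher, and Hbegf of the same family 5029 and 1235. Bdnf read 598 and 122, on the side opposite to its receptor gene Ntrk2. Pleiotrophin, Ptn, was higher in the hippocampus at 322 and 1808.

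Neuronal genes were few above the floor. Of 45 neuronal and neuropeptide genes on the array 28 were below it on both arrays, and of the other 17, 5 were higher in the subventricular zone (29.4%) and 2 in the hippocampus (11.8%), with a median of 0.24. Eef1a2, the elongation factor of neurons and muscle, read 1162 and 114, at least 9.52-fold higher in the subventricular zone. Stmn2, a microtubule regulator of growing neurites, read 3465 and 514.

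Counts of proliferation and metabolism genes are set here beside the 5.18% and 6.85% of all genes higher in the subventricular zone and the hippocampus. Those 2 shares cover genes of all signal levels and were not matched to the brightness of a list. Of 50 cell cycle genes 6 were higher in the subventricular zone (12%) and 3 in the hippocampus (6%, near the share of all genes), while 36 had a negative difference (median -0.31). The G1 cyclin Ccnd1 read 10374 and 2698, with both other probe sets on the same side (1.77 and 2.27). The mitotic gene Cdc20 was higher in the hippocampus at 345 and 1652, but its other probe set above the floor differed by -0.39. Also higher there were Plk4, at 234 and 889 with another probe set at -1.58, and Mki67, at 361 and 747. Of 29 cholesterol and fatty acid synthesis genes 24 had a negative difference and 3 were 2-fold higher in the hippocampus (10.3%), among them Hmgcs1, which feeds the sterol pathway, at 1851 and 4002 (median -0.34). Of 34 antioxidant and detoxification genes 5 were higher in the subventricular zone (14.7%) and none in the hippocampus (median 0.44), among them extracellular superoxide dismutase, Sod3, at 730.3 and 220.0. Of 31 glycolysis and hypoxia genes 2 were higher in the subventricular zone (6.45%) and 5 in the hippocampus (16.1%; median -0.06); lactate dehydrogenase Ldhb read 9039.7 and 3261. Of 17 lipid carriers Fabp7 was higher in the subventricular zone and 4, led by Apod, in the hippocampus (23.5%; median -0.20).

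The same shares of all genes apply to the Wnt and BMP pathways and to further cell types, whose lists are short. Of 21 Wnt pathway genes 3 were higher in the subventricular zone (14.3%), led by the antagonist Sfrp1 at 2151 and 768, and 1 in the hippocampus (4.76%; median 0.08). Of 31 BMP, activin and TGF-beta pathway genes 4 (12.9%) and 5 (16.1%) were higher in the subventricular zone and the hippocampus (median 0.17); the ligand gene Bmp6 read 284 and 1272, and the inhibitor Smad7 652 and 156. Oligodendrocyte genes numbered 9 above the floor, with 1 higher in the subventricular zone (11.1%) and 3 in the hippocampus (33.3%; median -0.03), and the lineage markers Sox10 and Mog were below the floor on both arrays. For pericyte and smooth muscle genes the counts were 1 (8.33%) and 2 (16.7%) of 12 (median 0.04). For endothelial genes they were 2 (33.3%) and none of 6 (median 0.34), with Pecam1, Cdh5 and Kdr below the floor on both arrays. For olfactory ensheathing and Schwann cell genes they were 3 (25%) and 5 (41.7%) of 12 (median -0.29, and 0.30 over those above the floor on both arrays). Xist, the transcript that coats the inactive X, read 11 and 606, and the Y-linked Eif2s3y 219 and 271; the labels do not give the sex of the pups.

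The other 2 arrays show on which side further regions lay. For each gene apart, the ventral mesencephalon and olfactory bulb signals were put with the nearer of the 2 values on the log2 scale. Of the 395 genes higher in the subventricular zone, 190 (48.1%) had the mesencephalon near the subventricular zone and the bulb near the hippocampus, and 136 (34.4%) had both near the hippocampus. Nr4a1, with 2384 in the mesencephalon and 92.9 in the bulb, is of the former kind, and Six3, with 38 and 15.8, is of the latter. Of the 522 genes higher in the hippocampus, 184 (35.2%) had the bulb alone near the hippocampus, as Csf1r did with 90.9 in the mesencephalon and 4073 in the bulb. A further 219 (42%) had both near the subventricular zone, as Ttr did with 1 and 88.1. In 100 (19.2%) both were near the hippocampus, as with Col3a1, at 9394 and 10549. Microglial genes were thus high in the hippocampus and bulb cultures, with the list at 9561.7 in the mesencephalon and 85788 in the bulb, whereas Ttr was high in the hippocampal culture alone.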

How the data were processed

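Gene expression was measured on Affymetrix mouse arrays, 1 for each of 4 regions. The values are signal intensities on a linear scale as the authors deposited them, made with GCOS 1.4 per the submitters' processing notes; its settings and the detection calls were not used here. The equal trimmed means (2% at each end) show that the arrays had been scaled to a common value, and nothing further was scaled. The number of arrays limits the precision.

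Genes were named from the platform annotation. Of the probe sets, 20380 had 1 symbol, 691 several, 1555 none listed and 64 were controls; 20351 of the 20380 matched RefSeq. For a gene with several, 4956 in all, the probe set brightest over the 4 arrays by mean log2 signal was taken. Differences were computed in Python 3.11.15 with pandas 2.3.3 by a script tested on simulated data. Without replicates no p-value was computed.

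The members and the 40 gene lists were chosen with earlier results of these data known. The lists hold 1361 genes, 1176 of them on the array, of which 138 are in more than 1 list. Named genes came from a rule. It took the 15 furthest apart in each direction with a higher signal at least 4 times the floor, and 13 astrocyte and stem cell genes. It also took up to 5 genes apart per list and direction (2 where none was). Partners and other list members were added to complete a group after their values were seen. Among these were Ccl2, Csf1, Nfkb2, Nfkbia, Lhx2, Foxj1 and Folr1. Alternatives were another floor, a pseudocount of 50, another scaling, other probe set rules, other filters and a 4-fold limit.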

Additional observations from a re-analysis of the deposited data

How the results depend on the processing

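With 1 culture on each side no array could be left out, and the spread between cultures is unknown; array signal limits genes near the floor, where a difference is only bounded. No paired analysis was possible because each region has 1 array, so the groups share a single replicate number. Counts of genes higher in the subventricular zone and the hippocampus were 238 and 222 when the floor was set to the 70th percentile and 73 and 156 at 4-fold, and 267 were higher in the hippocampus among genes above the floor on both arrays. The share of differing genes on the subventricular side, 43.1%, became 51.7%, 54.7% and 47.1% with the higher floor, the filter on both arrays and quantile normalization.

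Over 40 list medians and 8 alternatives, 262 moved by less than the 0.22 scatter of a probe set, 51 moved by more and 7 reversed. A change of sign was counted as a reversal only where the main median was larger in size than that scatter. Among the 51, the medians of MHC class II (0.07 to -1.27), lipid carriers (-0.20 to 0.019) and pericyte genes (0.04 to -0.26) also changed sign. The changes under a filter or floor come from which genes enter or from the bound they are held to. Over genes above the floor on both arrays the medians were 0.075 (dorsal factors), 0.135 (other matrix), 0.039 (choroid plexus), 0.30 (ensheathing and Schwann), 0.013 (thyroid and retinoid) and 0.047 (glutamate and water), all reversed, and -1.58 (microglia), -1.27 (MHC class II), 1.62 (chemokines), -0.20 (complement), -0.78 (fibroblast), -0.021 (IGF), -1.05 (ependymal) and 0.019 (lipid carriers). With the higher floor they were 0.79 (ventral factors), -0.18 (dorsal factors), -1.52 (microglia), -1.27 (MHC class II), 0.41 (cytokines), -0.32 (complement), -0.80 (fibroblast), -1.12 (IGF), -0.99 (ependymal), -1.41 (choroid plexus), 0.76 (endothelial) and -0.75 (sex-linked). Quantile normalization gave -0.006 (filaments, reversed), 0.16 (reactive), -0.26 (pericyte) and 0.78 (endothelial); the cause was not tested. The mean of all probe sets gave -0.41 (dorsal factors), -2.30 (microglia), -0.47 (collagens), -0.29 (IGF), -0.075 (ensheathing) and -0.27 (thyroid). Without the filter on low values the medians of the dorsal factor, neuronal, other matrix, IGF, growth factor, guidance, endothelial, ensheathing, thyroid and glutamate lists were 0.00, and the others -2.19 (microglia), -0.34 (complement), -0.53 (fibroblast), -0.025 (collagens), -1.05 (ependymal) and -0.22 (choroid plexus). On log2(signal + 50) they were -3.45 (microglia), -0.98 (complement), -1.45 (fibroblast), -2.82 (choroid plexus), -0.84 (ensheathing) and -0.63 (sex-linked). Of the values for named genes under the alternatives, 1332 kept their side of 2-fold and 92 of 70 genes fell under it. Another 1 (Dhh) passed it and none reversed. Of the 1332, 132 come from the filter on both arrays, which leaves each value unchanged. With the higher floor 154 kept their side and 39 fell under 2-fold, and genes below that floor on both arrays were not counted.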

Other observations

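Of the 917 genes 2-fold apart, 586 were in none of the gene lists. Those named here are among the 12 furthest apart in each direction of these 586, with the subventricular zone signal first. On the subventricular side, the phosphatase subunit gene Ppp1r15a read 3149.9 and 397, the transcription factor gene Ddit3 1919.7 and 349, and the growth arrest gene Gadd45a 2174 and 409.7. The leucine zipper gene Nfil3 read 2338 and 222, 10.5-fold higher, and the kinase gene Pim1 2056 and 237. All 5 were also above the hippocampal signal in the ventral mesencephalon, with Nfil3 at 1992. Rgs8, a regulator of G-protein signalling, was not: it read 756 and 89, and 62.7 in the mesencephalon.

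On the hippocampal side stood chondromodulin, Cnmd, a cartilage protein, at 36.1 and 3323, at least 27.2-fold higher. Mia, also made by cartilage, read 17.3 and 2034. Both were low in the other 2 cultures as well, Cnmd at 72.4 in the ventral mesencephalon and 36.6 in the olfactory bulb and Mia at 136 and 47.2. The nuclear RNA Neat1 read 198 and 3986, 20.1-fold higher, and Itih3, which binds hyaluronan, 81.3 and 1225. Alox5ap, needed for leukotriene synthesis in myeloid cells, read 28.7 and 1616, beside the microglial list given above.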
